A study of Mus musculus and synthetic RNA with 74 samples.

Results

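Readers of N6-methyladenosine (m6A) bind RNA that carries this mark and pass it on to splicing, export, translation or decay. The 8 mouse reader genes described here were taken by name from the gene tables, and they were Ythdf1, Ythdf2, Ythdf3, Ythdc1, Ythdc2, Igf2bp1, Igf2bp2 and Igf2bp3. All 8 were found, among 20330 genes listed at embryonic day E2.5 and 21199 listed at E3.5. Their exons and introns were taken from a second pair of tables, with 109 exons and 101 introns in 1 transcript a gene.

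The series profiled single preimplantation embryos from crosses of Mettl16 +/- mice, in which a cassette of 3 stop codons had been placed in exon 3 of the m6A methyltransferase gene Mettl16. The edit was made in B6D2F1/J embryos, the founders were mated to C57BL/6JRj mice, and 1 edited line was sequenced. At E2.5, the morula stage, the labels gave 5 WT, 14 HET and 12 KO embryos, and at E3.5, the blastocyst stage, they gave 18 WT, 9 HET and 12 KO embryos, with genotypes read by the study from Mettl16 reads. Apart from the authors' own genotype comparisons, which were not used here, the tables hold 1 mean per gene or feature and stage over all embryos, whatever their genotype. No level per embryo, no error and no genotype comparison is therefore given, and nothing below was tested. The mean of the E2.5 table covers 16.1% WT and 38.7% KO embryos by the labels and that of E3.5 covers 46.2% WT and 30.8% KO embryos, so that stage and genotype mix cannot be told apart.

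The YTH domain, shared by the YTHDF and YTHDC proteins, holds the methylated adenosine in an aromatic pocket. YTHDF1, YTHDF2 and YTHDF3 are cytoplasmic paralogs, of which YTHDF2 is best known for bringing mRNA to the CCR4-NOT deadenylase and for a maternal role in mouse oocytes. YTHDC1 is a nuclear reader linked to splicing and export, and YTHDC2 is an RNA helicase needed in meiosis. The IGF2BP proteins bind through RRM and KH domains, were described as readers that stabilise their targets, and are best known as oncofetal proteins.

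The genes lie, in mm10 coordinates, at chr2:180904377-180920936 for Ythdf1, chr4:132184916-132212256 for Ythdf2, chr3:16183183-16217037 for Ythdf3 and chr5:86804490-86836657 for Ythdc1. Igf2bp1 lies at chr11:95957163-96005944, Igf2bp2 at chr16:22059009-22163299 and Igf2bp3 at chr6:49085218-49214954. No exon of a reader overlapped an exon or intron of another gene in the tables, apart from the last exon of Igf2bp1, which holds the microRNA gene Mir3063.

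Within the Ythdf genes and within the Igf2bp genes, most internal exons have like lengths and differ in sequence, which is shown with a small coding exon of each. The second exon of all 3 Ythdf genes is 25 nt long, and 19 of its 25 bases are the same in all 3 genes. It is printed 5′ to 3′ on the strand of the gene from the RefSeq genome of GRCm38, the build that is also called mm10, with the shared bases in capitals. The positions are chr2:180920312-180920336 (minus strand), chr4:132211432-132211456 (minus strand) and chr3:16183922-16183946 (plus strand).
Ythdf1 exon 2: AGAaCaAAAGGaCAAGatAAtAAAG
Ythdf2 exon 2: AGAcCaAAAGGtCAAGgaAAcAAAG
Ythdf3 exon 2: AGAcCtAAAGGgCAAGgaAAtAAAG

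The third exon of the 3 Igf2bp genes is 49 nt long, and 30 of its 49 bases are the same in all 3. The exons lie at chr11:95979621-95979669, chr16:22089062-22089110 and chr6:49168470-49168518, all on the minus strand, and capitals again mark bases shared by all 3.
Igf2bp1 exon 3: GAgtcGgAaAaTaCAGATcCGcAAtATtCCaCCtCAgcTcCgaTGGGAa
Igf2bp2 exon 3: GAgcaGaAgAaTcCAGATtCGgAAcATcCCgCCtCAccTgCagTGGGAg
Igf2bp3 exon 3: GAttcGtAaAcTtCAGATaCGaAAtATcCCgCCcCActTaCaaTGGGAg

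A search of the genome with the 8 spliced transcripts, for matches of at least 200 nt and 90% identity outside the gene itself, found copies for 2 readers. Ythdf2 has a pair of annotated intronless pseudogenes on the X chromosome, Gm6823 with 93.9% identity over 2890 aligned nt (chrX:70419860-70422743) and Gm8401 with 93.3% over 2898 (chrX:70517482-70520355). Both match exons 1 to 4 nearly whole and 882 nt of the last exon, and neither is a row of the tables used here. Salmon placed reads on transcripts, so reads from the copies could be counted for Ythdf2 in its Salmon gene level. The exon values came from alignments to the genome, which holds the copies, and how shared reads were counted there is not given. Both measures are uncertain to that extent. The end of the last exon of Ythdc1, 295 nt, has a match of 98.0% identity that overlaps the gene Pccb on chromosome 9. The nonamer that METTL16 methylates, UACAGAGAA, was searched as TACAGAGAA on the sense strand of 1 spliced transcript a gene. It was in 3.29% of 24466 transcripts and in 0 of the 8 readers, which says only that these letters are not in these reader transcripts.

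Ythdf2 was the most abundant reader at both stages, and the gap to the others was far wider at E2.5. The gene level is the authors' mean normalized count from Salmon, an estimator of transcript abundance, divided here by the sum of all gene means of the stage and multiplied by 1000000, a unit called CPM below. The level of Ythdf2 was 109 CPM per kilobase of exon at E2.5 and 33.9 at E3.5. At E2.5 it made up 61.1% of the summed level per kilobase of the 8 readers, and at E3.5 it made up 22.8%. The part of the pseudogene copies in these levels was not tested.

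The other readers formed the following orders, in which neighbours cannot be compared with a spread because none was deposited. At E2.5 the levels in CPM per kilobase ran from Igf2bp2 (29.0) and Ythdc1 (17.1) to Ythdf1 (7.60), Igf2bp3 (7.35) and Igf2bp1 (5.21), then Ythdf3 (2.51) and Ythdc2 (0.790). At E3.5 Igf2bp2 (31.2) was close to Ythdf2, followed by Igf2bp3 (25.3), Ythdc1 (21.7), Ythdf1 (18.01), Igf2bp1 (12.9), Ythdf3 (4.30) and Ythdc2 (1.23). By this level Igf2bp3 was the fifth at E2.5 and the third at E3.5, and Ythdf3 and Ythdc2 were the lowest at both stages. The place of Igf2bp3 at E2.5 depended on the quantification, since by summed exons, a second measure described with the stage ratios, it had 1.66 CPM per kilobase, below Ythdf3 at 1.77 and above only Ythdc2 at 0.882.

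**Figure D1:**
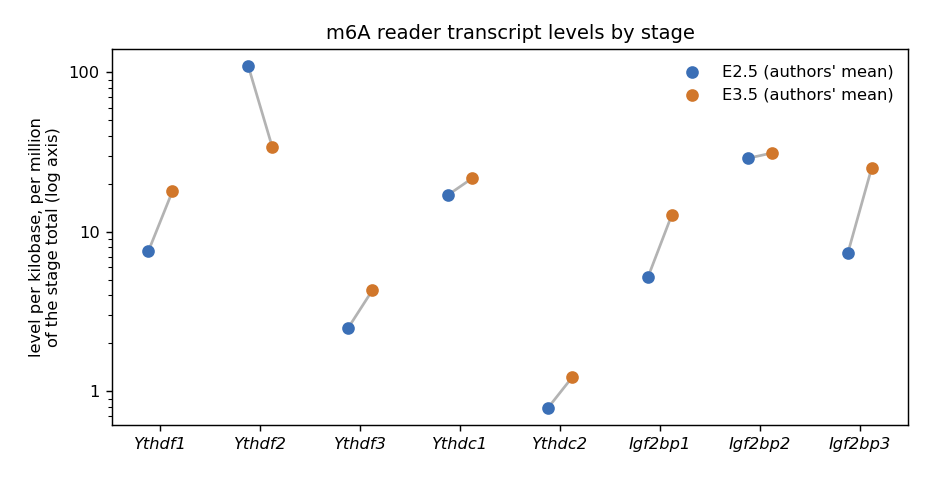
Level of each reader in CPM per kilobase of exon, on a log axis, with the authors' mean at E2.5 in blue and at E3.5 in orange, joined by a line. Ythdf2 falls from 109 to 33.9, the other 7 points lie higher at E3.5 than at E2.5, and Ythdc2 stays lowest.

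Among all genes with a mean above 0, the readers lay between percentile 61.4 (Ythdc2) and percentile 98.2 (Ythdf2) of the level in CPM at E2.5, and between percentile 62.2 (Ythdc2) and percentile 94.0 (Ythdf2) at E3.5. All 8 therefore had means well above the low end of the tables. The lowest, Ythdc2, still had a mean of 117 normalized counts at E2.5 and 209 at E3.5. Its place depended on the genes counted. Among genes with a mean of at least 10 it was at percentile 38.0 at E2.5 and 39.7 at E3.5. Among the same genes by level per kilobase it was at percentiles 24.8 and 27.4.

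The change between stages was next compared as the ratio of the E3.5 level to the E2.5 level, both in CPM of their stage. The stages were normalized separately by the authors, so a ratio is relative to the whole transcriptome of each stage. Of 14120 genes with a mean of at least 10 at either stage, 35.3% had a level at least 2-fold higher at E3.5 and 19.5% a level at least 2-fold lower, and the median ratio was 1.33. Of the 8 readers, 3 were at least 2-fold higher and 1 at least 2-fold lower, with a median ratio of 1.63, so the counts were near those of all genes. The same ratio was calculated from the summed exon signal of 1 transcript a gene, counted by featureCounts on genome alignments. On that measure 34.8% of 13798 genes were at least 2-fold higher and 22.7% at least 2-fold lower, and among the readers 2 were higher and 1 was lower.

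Among the YTHDF paralogs, Ythdf2 moved against the others. Its mean was 10472 normalized counts at E2.5 and 3754 at E3.5, a level 3.21-fold lower, at percentile 12.1 of all ratios. Its summed exons gave a value 2.71-fold lower. Ythdf1, a reader linked to translation, had 568 and 1550.4 normalized counts, a level 2.37-fold higher by Salmon and 2.67-fold higher by exons. Ythdf3, which is thought to act with both paralogs, had 314 and 620 normalized counts, a ratio of 1.71 by Salmon and 1.81 by exons. Ythdf1 and Ythdf2 were thus 14.3-fold apart per kilobase at E2.5 and 1.88-fold apart at E3.5.

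The YTHDC readers differed less between stages. Ythdc1 had 1222 normalized counts at E2.5 and 1787 at E3.5, a ratio of 1.27 by Salmon and 1.34 by exons, close to the median of all genes. Ythdc2, at chr18:44828665-44889720, had a ratio of 1.55 by Salmon and 1.62 by exons.

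The IGF2BP genes diverged from each other, and here the quantifications also differed. Igf2bp3 had 753 normalized counts at E2.5 and 2985 at E3.5, a ratio of 3.44 by Salmon at percentile 79.6, but its summed exons were 307 and 3889, a ratio of 15.1 at percentile 94.2. The difference came from E2.5, where its exon sum was 0.407 of its Salmon mean, a quotient at percentile 0.552 of 7796 genes whose median was 1.89. At E3.5 the quotient was 1.30, against a median of 1.27. The stage ratio of Igf2bp3 was therefore above 2 on both measures, while its size was not settled.

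Igf2bp1 had 1029 and 2927 normalized counts, a ratio of 2.47 by Salmon that was 1.88 by exons, under the 2-fold line. Igf2bp2 had 2661 and 3306 normalized counts, with ratios of 1.08 by Salmon and 0.876 by exons on either side of 1, so no direction is given for it.

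**Figure D2:**
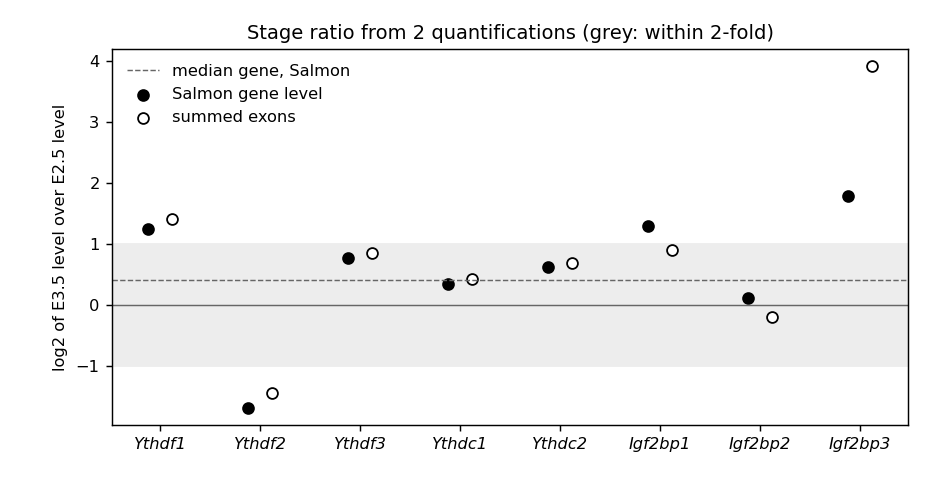
Log2 of the E3.5 level over the E2.5 level for each reader, from the Salmon gene level (filled) and from summed exons (open), with the grey band marking ratios within 2-fold and the dashed line the median gene by Salmon. The points of Igf2bp3 lie furthest apart, at 1.78 and 3.92, and those of Ythdf2 lie lowest, at -1.68 and -1.44.

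Exon by exon, the stage ratio was higher at the 3′ end than at the 5′ end in all 8 readers. This was measured as the log2 stage ratio of the last exon minus that of all other exons summed. It was above 0 in 8 of 8 readers and in 91.2% of 7562 genes with at least 3 exons and an exon sum of at least 100 at both stages. It was at least 1 in 6 of 8 readers and in 56.4% of genes, with medians of 1.27 in the readers and 1.14 in all genes, so the gradient was shared by most of the transcriptome. Within the readers it was largest in Igf2bp2 (2.34, percentile 91.4 of genes) and Igf2bp1 (2.21, percentile 89.2), and lowest in Ythdf1 (0.78, percentile 34.3).

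**Figure D3:**
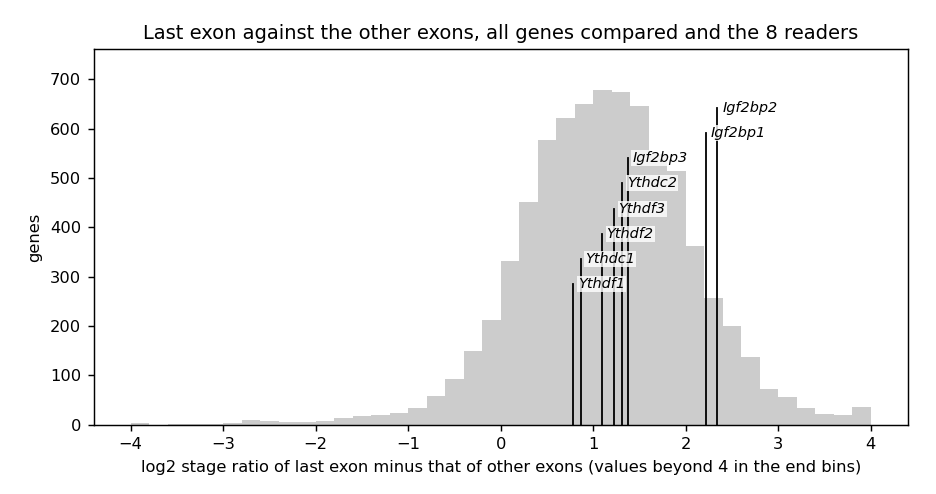
Number of genes by the log2 stage ratio of the last exon minus that of the other exons (grey bars), with a labelled line at the value of each reader. The lines of 6 readers stand in the middle of the distribution, between 0.78 and 1.37, and those of Igf2bp1 and Igf2bp2 stand on its right flank at 2.21 and 2.34.

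In Igf2bp2, whose last exon holds 93 coding nt and 1784 nt of 3′ UTR, all 15 other exons were lower at E3.5, with ratios of 0.27 to 0.68, and the last exon was higher, with a ratio of 2.19. The last exon held 25.2% of its exon signal at E2.5 and 63.1% at E3.5. In Igf2bp1, whose last exon is 6430 nt long, exons 2 to 10 had ratios of 0.64 to 1.14, exons 11 to 14 had ratios of 1.27 to 1.96 and the last exon had 5.25. The share of its signal in the last exon was 18.2% at E2.5 and 50.8% at E3.5. The signal of these 2 genes was therefore distributed differently along the transcript at each stage, and a gene level depends on which part of it is read.

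Igf2bp3 differed from its paralogs in that each of its 15 exons was higher at E3.5. The ratios were 6.05 to 10.4 over exons 2 to 10, 32.8 in exon 14 and 31.2 in the last exon. Over exons 2 to 10, which have nearly the same lengths in the 3 genes, the signal at E3.5 was 8.70-fold that of E2.5 in Igf2bp3, 0.83-fold in Igf2bp1 and 0.374-fold in Igf2bp2. At E2.5 the signal per kilobase of these exons was highest in Igf2bp2 (2059), then Igf2bp1 (1095), and lowest in Igf2bp3 (145). The E3.5 order was the reverse, with Igf2bp3 (1063) above Igf2bp1 (762) and Igf2bp2 (647). The Salmon level per kilobase showed no such reversal, since Igf2bp2 lay above Igf2bp3 and Igf2bp3 above Igf2bp1 at both stages. The reversal was thus limited to this exon signal, in which Igf2bp3 was low at E2.5 (an exon sum of 0.407 of its Salmon mean).

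**Figure D4:**
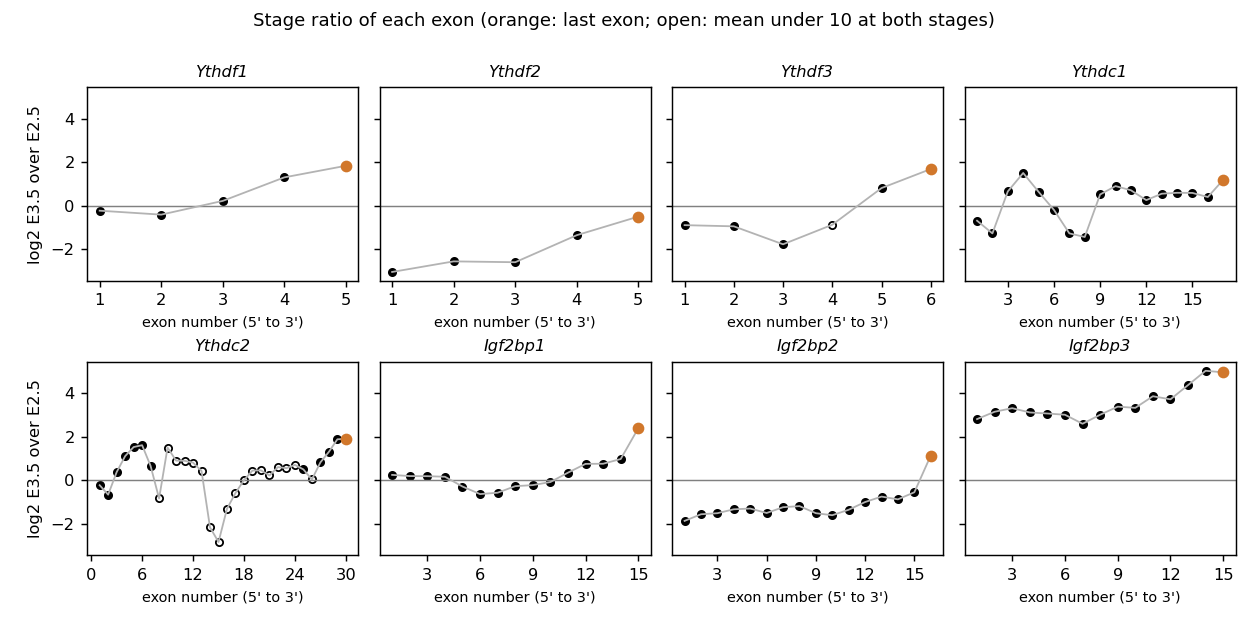
Log2 of the E3.5 signal over the E2.5 signal for each exon, numbered 5′ to 3′, with the last exon in orange and exons with a mean under 10 at both stages as open points. All exons of Igf2bp3 lie above 0 and all exons of Ythdf2 below it, and the last exon lies above exon 1 in every gene.

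In Ythdf2 all 5 exons were lower at E3.5, and the size of the difference depended on the position. The first 3 exons together were 6.84-fold lower, exon 4 was 2.58-fold lower and the last exon 1.43-fold lower. Exon 4, of 1584 nt, encodes most of the protein with its YTH domain and had a signal per kilobase of 5694 at E2.5, against 713 for the last exon of 2032 nt. At E3.5 these were 1856 and 420 per kilobase, so the last exon held 10.8% of the exon signal at E2.5 and 20.6% at E3.5. The pseudogene copies match exons 1 to 4 and the first 882 nt of the last exon, and their part in these values was not tested. The first 3 introns had small means that were lower at E3.5. They were 14.4 and 1.35 in intron 1, 4.09 and 0.72 in intron 2, and 12.6 and 5.21 in intron 3. Intron 4, of 17184 nt, was higher at E3.5, with 101 and 143 and a ratio of 1.67. All introns of the gene together had a ratio of 1.34.

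The order among the first 3 exons differed between the paralogs. Ythdf1 and Ythdf3 showed the same order as Ythdf2 over the second exon, the long coding exon and the last exon, at another level. Their second exons, printed above, had ratios of 0.75 in Ythdf1 and 0.51 in Ythdf3, against 0.17 in Ythdf2. The long coding exon had ratios of 2.45 in Ythdf1, 1.74 in Ythdf3 and 0.39 in Ythdf2, and the last exon 3.56, 3.20 and 0.70. At every one of these homologous exons, Ythdf2 had the lowest ratio of the 3 paralogs. Ythdf3 also has an optional exon of 33 nt with means of 1.93 and 0.878, and an exon of 149 nt in a noncoding transcript with 6.74 and 5.35, both low beside the 210 and 308 of its long coding exon.

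The 2 YTHDC genes held the internal reader exons whose stage ratio stood furthest below the median exon of their transcript. For each internal exon with a mean of at least 10 at either stage, the log2 stage ratio was set against the median exon of its transcript. Of 67083 such exons of all genes, 9.2% were lower than the median exon by at least 1, and of 74 reader exons 4 were, a share below that of all exons. They were exons 2, 7 and 8 of Ythdc1, at -1.83, -1.83 and -1.99, and exon 2 of Ythdc2, at -1.19.

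Exons 7 and 8 of Ythdc1 lie side by side inside the gene, have 95 and 109 nt, are coding throughout and encode part of the YTH domain. The sequences are shown because these exons had the lowest signal per kilobase of the gene at E3.5, with the exon in capitals between 10 intron bases on each side. Printed with these flanks, they span chr5:86821242-86821356 and chr5:86822586-86822714 on the plus strand of GRCm38.
Ythdc1 exon 7: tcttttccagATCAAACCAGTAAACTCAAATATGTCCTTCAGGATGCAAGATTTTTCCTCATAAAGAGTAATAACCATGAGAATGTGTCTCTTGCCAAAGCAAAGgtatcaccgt
Ythdc1 exon 8: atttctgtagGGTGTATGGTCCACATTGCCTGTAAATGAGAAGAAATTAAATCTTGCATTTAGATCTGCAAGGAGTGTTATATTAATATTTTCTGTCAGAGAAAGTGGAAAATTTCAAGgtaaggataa

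Exon 7 had a mean of 44.6 at E2.5 and 15.4 at E3.5, and exon 8 had 46.3 and 14.2. Per kilobase, exons 6 to 9 stood at 626, 470, 425 and 572 at E2.5, and at 457, 162, 131 and 684 at E3.5. Exons 7 and 8 together were thus at 74.7% of the mean of their neighbours at E2.5 and at 25.7% at E3.5. On the stage scale they were 2.58-fold lower at E3.5, at percentiles 2.05 and 1.56 of exon deviations, while exons 9 to 16 had ratios of 1.19 to 1.86. Introns 6 and 7, on either side of exon 7, had means of at most 0.501 at both stages. Reads across exon junctions were not analysed here.

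**Figure D5:**
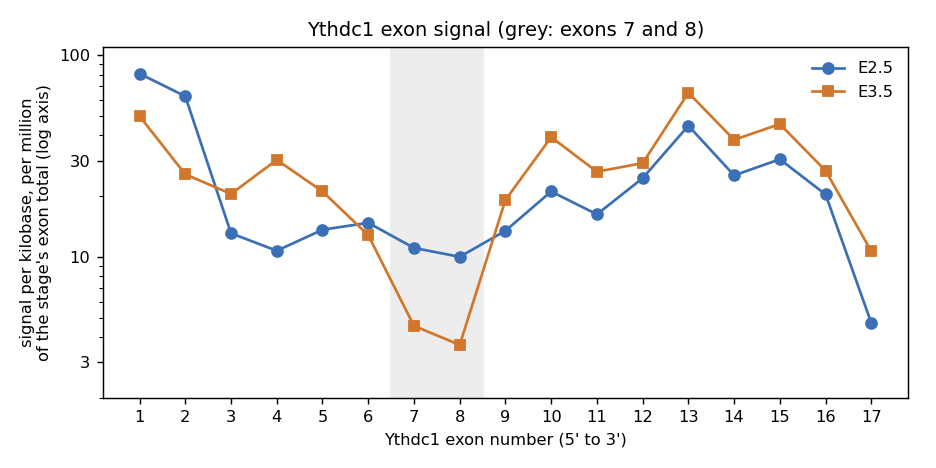
Signal of each Ythdc1 exon per kilobase, as CPM of the exon total of the stage, on a log axis, at E2.5 (blue circles) and E3.5 (orange squares). The E3.5 line lies below the E2.5 line at exons 1, 2 and 6 to 8, of which 7 and 8 are shaded grey, and above it from exon 9 on.

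In Ythdc2, the helicase reader, the first exons held a larger share of the signal than of the exon length. Exons 1 to 7, with 18.6% of the exon length, held 59.7% of the exon signal at E2.5 and 52.2% at E3.5. Exons 8 to 23, with 34.0% of the length, held 15.6% and 13.3%, and exons 24 to 30, with 47.4% of the length, held 24.7% and 34.5%. The last exon has 1932 nt, and these shares were not corrected for the higher signal per kilobase of short exons. Exons 14 to 17 had means of 0.65 to 1.17 at E2.5 and of 0.135 to 0.395 at E3.5, the lowest of the gene. The genes of MEIOC and RBM46, partners of YTHDC2 in meiosis, had means under 10 at both stages where listed. Meioc had 9.71 and 5.23 normalized counts, and Rbm46 had 0.263 at E2.5 and was not listed at E3.5.

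Intron signal was low next to exon signal in all 8 readers. Per nucleotide it was 0.174% (Ythdf2) to 2.19% (Ythdf3) of the exon signal at E2.5 and 0.633% (Ythdf2) to 5.65% (Ythdf3) at E3.5. The medians of the readers were 0.932% and 1.27%, beside 0.753% and 1.32% over 7796 genes. Introns of readers were higher at E3.5 in the sum of every gene, with a median ratio of 2.47 and 1.93 in all genes.

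Igf2bp3 stood apart in its introns. Its 14 introns, 125390 nt in all, had summed means of 75.8 at E2.5 and 1469.7 at E3.5, a ratio of 23.1 at percentile 99.5 of 6923 genes. Its long introns 2, 3 and 5 carried most of this, with 28.5 and 517, 24.6 and 424, and 3.15 and 268. The summed intron and exon signals of Igf2bp3 from featureCounts were thus both higher at E3.5 by more than 10-fold, while its Salmon level gave a ratio of 3.44. Igf2bp2, with 100392 nt of introns, had intron sums of 436 and 964, a ratio of 2.63.

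In Ythdc1, 2 introns held most of the intron signal. Intron 1, of 11037 nt, had means of 133 and 114, and intron 11, of 2432 nt, had 54.8 and 53.4. Per kilobase intron 11 stood at 22.5 and 21.9, and introns 10 and 12 beside it at 1.26 and 0.69, and 1.49 and 2.13. The signal of intron 11 was thus more than 10-fold that of its neighbours at both stages, with a stage ratio of 1.16 after scaling to the stage totals. Intron 3, of 114 nt, was as high or higher per kilobase, at 22.3 and 48.4, but with means of only 2.54 and 5.52.

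Genes that write, erase or act with m6A were counted in the same way. Of the writers and cofactors, 12 were listed, 2 of them were at least 2-fold higher at E3.5 and 2 at least 2-fold lower, with a median ratio of 1.22, beside 35.3% higher, 19.5% lower and a median of 1.33 over all genes. The higher ones were Rbm15b (3.45) and Rbm15 (2.90), RNA-binding parts of the METTL3 complex, and the lower ones were the E3 ligase gene Cbll1 (4.11-fold lower) and Mettl14 (a ratio of 0.400). Both erasers were higher, Fto with a ratio of 3.34 and Alkbh5 with 2.28. Mettl16, the gene edited in these crosses, had 778 and 669 normalized counts over all genotypes, which does not check the labels.

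Of 11 other proteins with m6A-dependent binding, 0 were at least 2-fold higher and 1 was at least 2-fold lower, Prrc2a (4.04-fold lower), with a median ratio of 0.801, again beside 35.3% and 19.5% of all genes. Of 16 partners of readers, 14 passed the filter on low means, 3 were at least 2-fold higher and 2 at least 2-fold lower, with a median ratio of 0.973, both counts below the shares of all genes. Within the CCR4-NOT deadenylase that YTHDF2 recruits, the catalytic subunits differed in direction. Cnot6 (4.61) and Cnot6l (2.77) were higher at E3.5, and Cnot8 (2.67-fold lower) and Cnot7 (2.37-fold lower) were lower. The third higher partner was Pabpc1 (3.09), which encodes the poly(A)-binding protein. Elavl1 stood in both lists.

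The stage labels were compared with known markers, beside the same 35.3% higher and 19.5% lower of all genes. Of 6 trophectoderm genes, 5 were at least 2-fold higher at E3.5, among them Krt8 (41.1) and Eomes (30.3), and the sixth, Tfap2c, was 3.29-fold lower. Of 5 pluripotency genes, Sox2 (10.5) and Nanog (6.54) were higher and Pou5f1 was 2.95-fold lower, and of 4 primitive endoderm genes, Pdgfra (14.5) and Sox17 (2.11) were higher and Gata4 was 5.78-fold lower. All 6 maternal oocyte genes were at least 2-fold lower, among them Bmp15 (35.4-fold lower). Genes of the oviduct and uterus had signal at E2.5, where Ovgp1 had 320 normalized counts and Ltf had 129, against 25.3 and 0.0363 at E3.5, whereas Muc1, the third gene of that list, had 19.3 at E2.5 and 97.7 at E3.5. The oocyte list summed to 89.9 CPM at E2.5 and 5.39 at E3.5, the cumulus list to 42.4 and 5.32, nearly all of it Amhr2, the oviduct and uterus list to 19.9 and 4.53, the latter mostly Muc1, the blood list to 2.13 and 0.540, and the sperm list to 0.375 and 0.351. In whole embryos, fewer cells of a type and less RNA per cell cannot be told apart, and the part of these markers in the reader values was not tested.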

How the data were processed

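Single embryos had been sequenced from polyadenylated RNA with Smart-seq2, which keeps no strand. According to the submitters' processing notes, the tools were cutadapt 1.9.1, Salmon 0.7.2, STAR, featureCounts, DESeq2 1.18.1 and R 3.4.3, on mm10. The authors deposited, for each stage, a mean normalized signal per gene (Salmon counts) and per exon and intron (featureCounts), after division by DESeq2 size factors and averaging over embryos. Other deposited columns hold the authors' own log2 fold changes and adjusted p-values between genotypes and were not used. The table of RNAs methylated in vitro was not used here. Depth per embryo is not in these tables, so no interval or floor was calculated, and with 1 mean a stage no test was possible.

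The means summed to 23557112 over genes at E2.5 and 27145016 at E3.5, and over distinct exons to 42464339 and 35692362. Ratios and folds between stages were calculated after division by these totals, so a ratio is relative to the stage. Normalized counts, exon and intron means and signals per kilobase are printed without this division unless given in CPM. A read touching a short exon counts in full, so signal per kilobase is higher in short exons. It was compared between stages, between exons of like length and in places between exons or introns of unlike length. No correction for length was made in these comparisons. The transcript with most exons stood for each gene, coding ones first. Sequences came from the RefSeq genome of GRCm38, and copies were sought with BLAST+ 2.17.0. Other steps used Python 3.11.15, pandas 2.3.3 and numpy 2.4.6. Of these, the stage ratio, the comparison of the last exon and that with the median exon were tested on simulated data.

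The members and lists were chosen with earlier results of these data known. Named were the 8 readers, at most 4 genes a list by level or ratio, and within a reader the exons and introns with the highest or lowest signal, to which exons 7 and 8 of Ythdc1, the homologous exons of paralogs, Meioc, Rbm46 and all genes of counts up to 5 were added after their values were seen. Alternatives tried were exon sums for Salmon means, other lengths, scalings and filters, and other summaries of introns.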

Additional observations from a re-analysis of the deposited data

How the results depend on the processing

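With no error available, a value counted as moved when it changed by more than 1.5 times. Of 114 values recomputed under an alternative, 97 did not move. The counts of readers at least 2-fold higher or lower were 3 and 1 with the median gene ratio as the scale and with the means as deposited, and 2 and 1 with summed exons, a change of the first count that lies at this limit. The share of Ythdf2 in the summed level per kilobase did not move. Counting only genes with a mean of at least 10 moved the percentile of Ythdc2 from 61.4 to 38.0 at E2.5 and from 62.2 to 39.7 at E3.5. Taking the median intron of each gene in place of all introns lowered the median intron percent of the readers from 0.932% to 0.509% at E2.5 and from 1.27% to 0.627% at E3.5 (the cause was not tested). Among single genes, the exon sums moved the stage ratio of Igf2bp3 from 3.44 to 15.1 and its share at E2.5 from 4.12% to 1.21%, and the share of Igf2bp1 at E2.5 from 2.92% to 4.50%, and the cause was not tested. Leaving out single embryos was not run, because the tables hold 1 mean a stage. No paired analysis was possible because no result comes from a test.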
